A study of Mus musculus with 6 samples.

Results

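Of 18194 genes measured in whole e15.5 mouse pancreases, 111 genes above a signal limit and not known to be X- or Y-linked were higher in every one of the 3 Jarid2Δpanc samples than in any of the 3 Jarid2WT samples. The members were taken by a rule on the array values themselves. The brightest probe set stood for each gene with a single symbol, log2 values were used after raising any signal below 16 to 16. A gene was kept when its signal exceeded 64 on at least 3 arrays, its lowest Jarid2Δpanc value lay above its highest Jarid2WT value and the means differed by at least 0.4 on the log2 scale. Of 10002 genes that passed the signal limit, 9663 remained after the X- and Y-linked genes and 9 genes named in the rule were set aside. The 111 genes were 1.15% of these 9663. Of 12 further genes that met every limit, 7 were X-linked, among them Kdm6a at a log2 difference of 0.56, and 5 were named in the rule, namely S100a9, Malat1, Sox11, Hhex and Runx1t1 with log2 differences of 1.59, 1.23, 0.67, 0.56 and 0.43. Because the rule used the comparison of the groups, the differences given for the members describe how they were chosen and were not tested.

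Jarid2Δpanc embryos carried Pdx1-Cre and 2 floxed alleles of Jarid2, so that Cre was active in pancreatic epithelial progenitors, with recombination restricted to the epithelium and incomplete there. Jarid2WT embryos are labelled as wild-type, and both groups were C57BL/6 at embryonic day 15.5 with no further treatment. Total RNA of whole pancreases, which hold epithelium together with mesenchyme, vessels and blood cells, was hybridized to one array per sample. In such bulk samples, more cells of a type and more RNA per cell cannot be told apart.

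Jarid2 is a cofactor of Polycomb repressive complex 2, the enzyme complex that places the repressive mark H3K27me3 on histone H3 at developmental genes, and it helps to bring the complex to its targets. At this stage of gestation the pancreatic epithelium forms acini, ducts and endocrine cells, while the surrounding mesenchyme supplies matrix and secreted signals such as Wnt, FGF and retinoic acid.

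The samples differed in more than Jarid2. The 3 probe sets of Jarid2 had log2 differences of 0.01 to 0.13, and since the positions of their probes relative to the floxed exon are not given, they do not check the deletion. The female transcript Xist had signals of 24 and 12 in Jarid2WT replicates 1 and 2, 4390 in replicate 3 and 4197 to 4905 in the Jarid2Δpanc samples, so that only replicate 3 among the controls matched the mutants in sex. Replicate 3 also held skeletal muscle RNA, with 23352 signal units summed over 32 muscle genes against 695 to 878 in the other 5 samples. Differences against Jarid2WT replicate 3 alone are therefore given for a number of members. The rule used this sample too, so every member had to lie above it, and these differences are no independent check. With limma over all 18194 genes, 0 genes passed an adjusted p of 0.05 as higher (0%) and 0 as lower (0%), and 795 were higher and 807 lower at an unadjusted p under 0.05. Nothing says whether the 3 samples of a group came from separate litters.

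The differences of the members were small. Their median log2 difference was 0.50, which is a ratio of 1.41, 27 members reached 0.6 and only Zfp423 and Scpep1 reached 1. The same limits taken downwards gave 161 genes (1.67% of 9663), with a median of -0.55, and 18 of those reached -1. Without the limit on the difference, the groups failed to overlap with Jarid2Δpanc above in 716 genes (7.41%) and with Jarid2Δpanc below in 819 genes (8.48%). The members were also dim. Their mean signal over the 6 samples had a median of 133, against 261 for all 9663 genes and 242.5 for the genes chosen as lower, and 52 of the 111 (46.8%) had a mean under 2 times the signal limit, against 23.0% of all genes. Only 6 members averaged over 500 units. In 10 members the signal passed 64 in the Jarid2Δpanc samples only, so that they met the signal limit through the mutants alone.

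**Figure D1:**
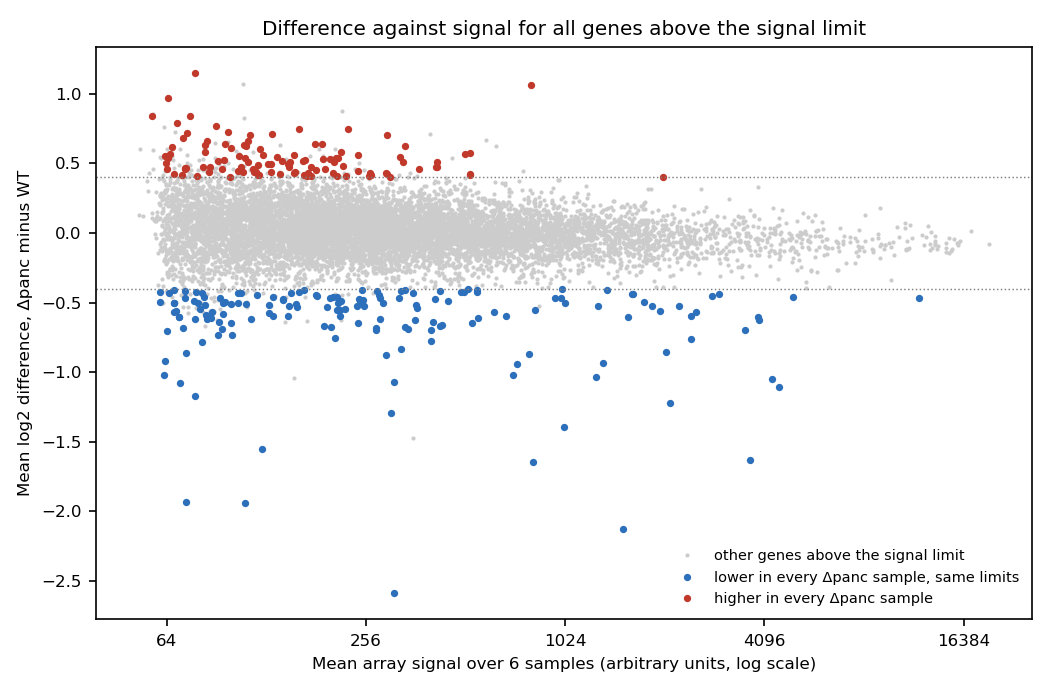
Mean log2 difference (Jarid2Δpanc minus Jarid2WT, vertical axis) against the mean array signal over the 6 samples (horizontal axis, log scale) for the genes above the signal limit, with X- and Y-linked and named genes left out. Each point is a gene, and dotted lines mark the limits of 0.4 and -0.4. The 111 genes higher in every Jarid2Δpanc sample crowd at the dim end, with Mdk alone far to the right, while the 161 lower genes reach brighter signals and larger differences.

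Within the members the separation of the groups was narrow. The gap between the lowest Jarid2Δpanc and the highest Jarid2WT value had a median of 0.15 on the log2 scale, less than the median range of 0.43 among the Jarid2WT samples and of 0.27 among the Jarid2Δpanc samples. In 12 members the gap was wider than both ranges, and in 30 it was under 0.1. Jarid2WT replicate 3 was the highest control in 48 members, replicate 2 in 35 and replicate 1 in 28. For the controls no shares over all genes were taken. Jarid2Δpanc replicate 1 was the highest mutant in 47 members, replicate 2 in 36 and replicate 3 in 28. Over all genes above the signal limit these samples were the highest mutant in 31.4%, 37.4% and 31.1%. Replicate 3 was the lowest mutant in 52 members, for which no share over all genes was taken. Against replicate 3 as the only control, the median difference was 0.46, the smallest was 0.15 and 69 of 111 members reached 0.4. All 111 had to be above 0 here, because the rule used this replicate.

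**Figure D2:**
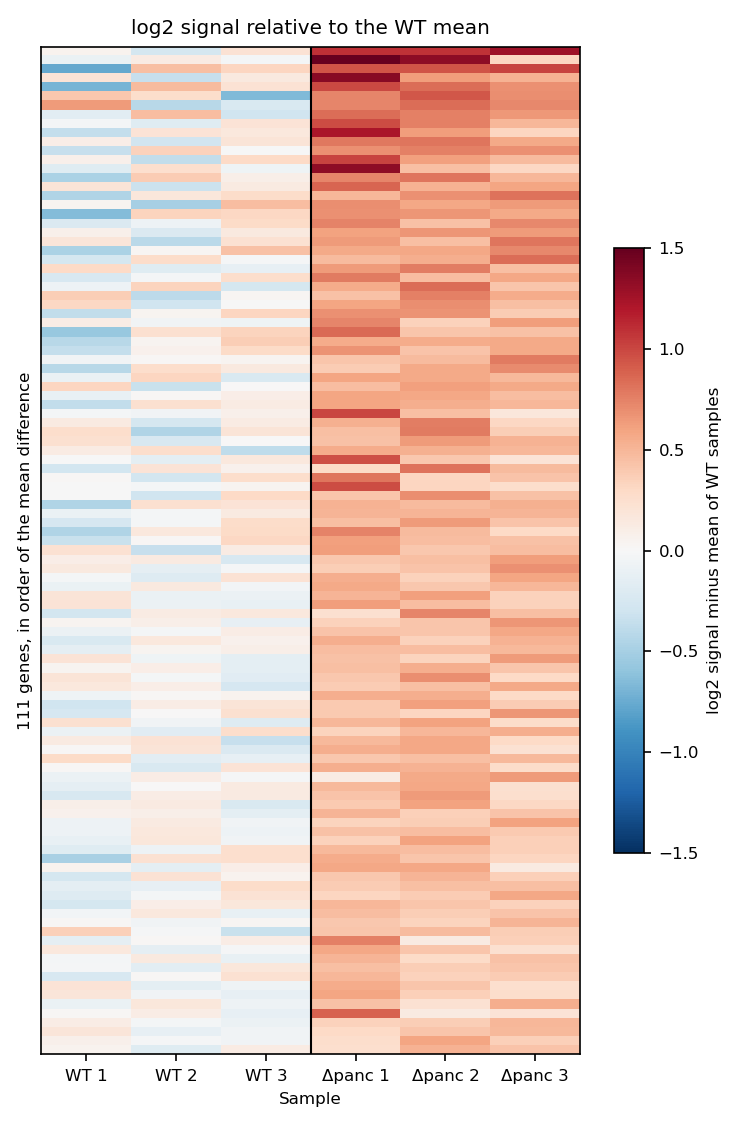
log2 signal of the 111 genes (rows, in order of the mean difference) in each of the 6 samples (columns), relative to the mean of the Jarid2WT samples (colour scale). The Jarid2Δpanc columns are above the Jarid2WT mean throughout, and Jarid2Δpanc replicate 1 holds several of the darkest cells.

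Zfp423, which encodes a zinc finger transcription factor that acts in BMP signalling and in the commitment of preadipocytes, had the largest difference and the widest gap. Its signals were 50, 40 and 56 in Jarid2WT and 103, 102 and 116 in Jarid2Δpanc. The log2 difference was 1.15 (SE 0.15). All controls lay below the signal limit of 64, so that the filter on at least 3 arrays required all mutants to be above it. Scpep1, which encodes a serine carboxypeptidase of the lysosome, came next at 1.06 (SE 0.38). Its signals were 468, 549 and 493 in Jarid2WT and 1434, 1277 and 627 in Jarid2Δpanc, so that 2 mutants were far above the controls and the third was just above them. A second probe set of Scpep1 read 172, 187 and 174 against 233, 208 and 157, with overlapping groups and a log2 difference of 0.15.

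Promoters are shown for these genes and for members with roles in transcription that are described next. Each sequence is RefSeq's on GRCm38.p6, runs 5′ to 3′ on the minus strand from 250 bases before to 50 bases after the first listed start, and has in capitals every match on either strand to the GC box, spelled GGGCGG, to the box spelled CCAAT, to the element spelled TATAAA and to the core that TCF factors bind, spelled CTTTGA.
Zfp423 (chr8:87959546-87959845): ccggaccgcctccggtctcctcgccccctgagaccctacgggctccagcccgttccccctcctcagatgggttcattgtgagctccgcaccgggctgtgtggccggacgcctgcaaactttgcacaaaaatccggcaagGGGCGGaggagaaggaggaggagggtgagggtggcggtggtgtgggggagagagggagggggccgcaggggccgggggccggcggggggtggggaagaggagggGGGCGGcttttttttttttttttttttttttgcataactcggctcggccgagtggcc
Scpep1 (chr11:88955393-88955692): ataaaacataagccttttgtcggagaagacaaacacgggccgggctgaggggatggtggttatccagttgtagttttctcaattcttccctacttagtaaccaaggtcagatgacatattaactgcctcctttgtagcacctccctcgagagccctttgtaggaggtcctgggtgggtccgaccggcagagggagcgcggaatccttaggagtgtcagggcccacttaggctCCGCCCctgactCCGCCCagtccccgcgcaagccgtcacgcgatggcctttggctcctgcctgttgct
Tcf21 (chr10:22820094-22820393): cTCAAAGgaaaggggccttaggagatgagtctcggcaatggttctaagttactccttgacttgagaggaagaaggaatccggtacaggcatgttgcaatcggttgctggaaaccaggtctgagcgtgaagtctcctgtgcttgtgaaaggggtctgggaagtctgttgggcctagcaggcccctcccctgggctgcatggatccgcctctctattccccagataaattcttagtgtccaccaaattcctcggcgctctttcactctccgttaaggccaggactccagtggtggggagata
Tcf7l1 (chr6:72788996-72789295): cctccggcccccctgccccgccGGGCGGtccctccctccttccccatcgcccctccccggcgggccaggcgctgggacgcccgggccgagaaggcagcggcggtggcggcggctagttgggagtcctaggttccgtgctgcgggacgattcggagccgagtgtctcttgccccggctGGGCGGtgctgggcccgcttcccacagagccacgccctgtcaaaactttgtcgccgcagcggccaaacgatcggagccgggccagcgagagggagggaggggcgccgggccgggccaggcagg
Tle4 (chr19:14598134-14598433): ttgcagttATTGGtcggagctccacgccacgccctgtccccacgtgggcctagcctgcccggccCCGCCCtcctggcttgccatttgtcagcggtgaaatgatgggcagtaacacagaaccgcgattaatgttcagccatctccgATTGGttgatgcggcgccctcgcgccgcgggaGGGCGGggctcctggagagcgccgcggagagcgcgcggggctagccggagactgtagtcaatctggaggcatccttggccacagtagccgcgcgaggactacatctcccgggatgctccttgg
The 4 promoters other than that of Tcf21 each hold GC boxes, Tle4 also holds CCAAT, and Tcf21 holds a single TCF core at its distal end. Of the 111 members 89 had a promoter in the table. A GC box was present in 66.3% of these 89 and in 67.7% of the 7850 promoters among all 9663 genes. CCAAT was present in 29.2% against 38.9%, TATAAA in 4.49% against 6.61%, CTTTGA in 10.1% against 11.1%, and CACGTG, an E-box that was not put in capitals, in 4.49% against 10.6%. The element that CREB binds, spelled TGACGTCA, was present in 1.12% against 3.49%. The median GC content was 60.3% against 61.7% and the median ratio of observed to expected CpG 0.70 against 0.79. None of the motifs searched was more frequent among the members, and a match describes letters in the window and no binding.

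Among the members 18 were assigned to transcriptional regulators from general knowledge after their values were seen, with a median log2 difference of 0.52. Tcf7l1, a TCF factor that mostly represses Wnt target genes, was higher in every mutant by both of its probe sets above 64. Its signals were 243, 265 and 282 in Jarid2WT and 397, 394 and 362 in Jarid2Δpanc, a log2 difference of 0.55 (SE 0.08) with a gap wider than the spread within either group. Its other probe set above 64 read 142, 69 and 127 against 148, 151 and 202 and did not overlap either, at 0.62. Tle4, a Groucho corepressor that TCF factors recruit, had a mean signal of 102 ± 24.6 in Jarid2WT (SD, n = 3), with replicate 1 at 79 and replicate 3 at 100, and signals of 161, 170 and 161 in Jarid2Δpanc, a log2 difference of 0.71 (SE 0.20). The mutants were nearly equal here and the controls were spread over 0.70 on the log2 scale.

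Tcf21, a helix-loop-helix factor of visceral mesenchyme, followed one sample. Its signals were 191, 258 and 207 in Jarid2WT and 550, 297 and 269 in Jarid2Δpanc, at a log2 difference of 0.70 (SE 0.35). Replicate 1 was about 0.89 above the next mutant on the log2 scale, the other mutants were close to the highest control, and without replicate 1 the difference was 0.38. Prox1, a homeodomain factor of pancreatic progenitors, duct cells and lymphatic endothelium, had 212, 139 and 171 against 258, 278 and 234, at 0.58 (SE 0.19). Creb1, the factor that mediates cAMP responses, was one of the brightest members with 437, 500 and 415 against 617, 582 and 605, at 0.42 (SE 0.08). A probe set of Creb1 of like brightness read 522, 503 and 509 against 498, 558 and 489, a log2 difference of 0.01 with full overlap between the groups. Klf12, a zinc finger repressor, had a log2 difference of 0.49, Bnc1, a zinc finger factor of mesothelium and keratinocytes, 0.44, and Rsf1, a subunit of a chromatin remodeller, 0.42. The other probe sets of Klf12 above 64 had overlapping groups, at 0.13 and 0.28. All 3 other probe sets of Rsf1 above 64 were higher in every mutant, at 0.12 to 0.72. Cux2 and Nacc1, a homeodomain factor and a BTB-domain corepressor, had 0.66 and 0.63. Against Jarid2WT replicate 3 alone Nacc1 was at 0.18, and its direction turned with the mean of all its probe sets (-0.0763). A dim probe set of Nacc1 was lower in every mutant, with 27, 24 and 31 against 11, 13 and 12 (-0.76). Another probe set of Cux2 had groups that overlapped and a difference of -0.20. In a list of 71 measured general transcription factors and coactivators, which holds Tle4, Klf12 and Creb1, 10 of the 64 genes above the signal limit were higher in every Jarid2Δpanc sample and 0 were lower, where the shares over all genes were 7.41% and 8.48%, and the median difference was 0.06.

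Wnt signalling acts through secreted ligands, R-spondins that raise receptor levels, and TCF factors in the nucleus. Besides Tcf7l1 and Tle4, the members included Rspo3, an R-spondin, and Wnt9a, a ligand. Rspo3 had signals of 56, 83 and 80 in Jarid2WT and 168, 111 and 90 in Jarid2Δpanc, at 0.72 (SE 0.32), and replicate 1 was again the highest. Wnt9a had 64, 46 and 48 against 81, 89 and 71, at 0.62 (SE 0.18), close to the signal limit throughout. None of its controls exceeded 64, so that it met the limit through the mutants alone. In a list of 76 measured genes of Wnt, Notch, Hedgehog and BMP signalling, 58 passed the signal limit, of which 8 were higher in every Jarid2Δpanc sample and 1 was lower, beside 7.41% and 8.48% of all genes. These 8 were Tcf7l1 and Rspo3 together with Tgfbr3, Id4, Tgfbr2, Dll1, Acvr2a and Jag1, whose log2 differences were 0.36, 0.32, 0.30, 0.29, 0.23 and 0.10 and thus under the limit for a member. The signal summed over the list was 30675 to 31608 in Jarid2WT and 31780 to 34028 in Jarid2Δpanc. The median difference of the 76 genes was 0.07, and over all genes above the signal limit it was 0.01. In limma 0 genes of the list passed, as did 0 of all genes.

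**Figure D3:**
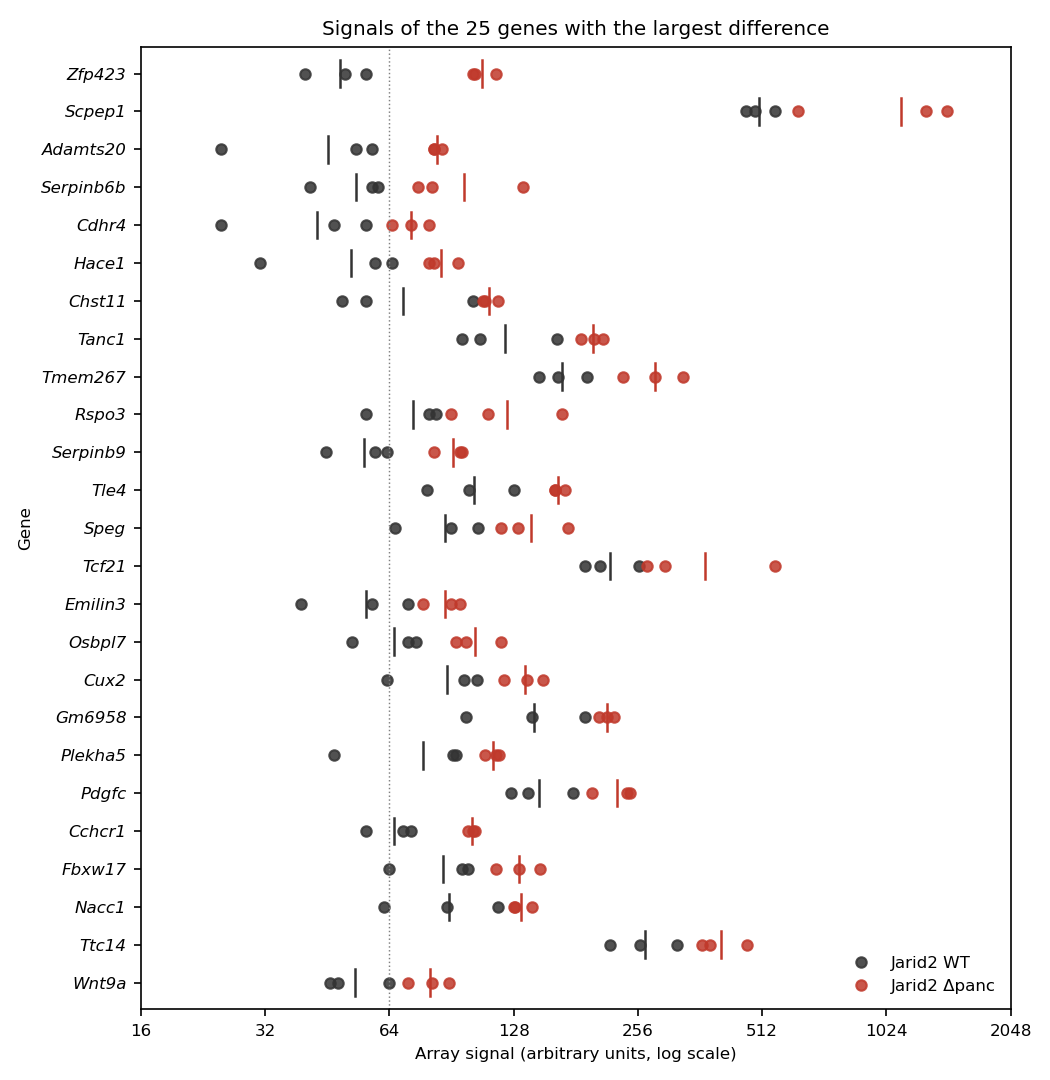
Array signals (horizontal axis, arbitrary units, log scale) of the 25 genes with the largest mean log2 difference (rows). Each dot is a sample, black for Jarid2WT and red for Jarid2Δpanc, short lines mark the arithmetic mean of each group (n = 3) and the dotted line marks the signal limit of 64. Most of these genes have controls near or under 64, and in Scpep1, Tcf21, Rspo3 and Serpinb6b the mutants are spread more widely than the controls.

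Other secreted signals and receptors included Pdgfc, a ligand of the PDGF receptors on mesenchyme, at 0.64, with 0.35 against Jarid2WT replicate 3 alone. The semaphorins Sema3a, Sema3f and Sema6c, guidance cues for axons and vessels, had 0.54, 0.43 and 0.41, and the ephrin Efnb3 had 0.42. The teneurin Tenm3, a cell adhesion receptor, had 0.58, and 0.25 against that replicate. Another probe set of Tenm3 above 64 had overlapping groups, at 0.21. Calcrl, a receptor for adrenomedullin and CGRP, had 0.52. Mdk encodes midkine, a heparin-binding growth factor of embryonic tissues, and was both the brightest member and the one nearest to the limit. Its signals were 1805, 1535 and 1889 in Jarid2WT and 2061, 2497 and 2342 in Jarid2Δpanc, at 0.40 (SE 0.12), and against replicate 3 alone the difference was 0.28. In 8 of the 10 genes assigned to signals, receptors and guidance molecules the highest control was Jarid2WT replicate 3, for which no share over all genes was taken. Only 3 of the 10 had a difference of at least 0.4 against that sample.

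Genes of the extracellular matrix and of the enzymes that modify it numbered 10, with a median log2 difference of 0.54. Nid2, a nidogen of basement membranes, had the narrowest range of mutant values among the members. Its signals were 324, 339 and 380 in Jarid2WT and 493, 494 and 493 in Jarid2Δpanc, at 0.51 (SE 0.07), with a gap of 0.38. Plod2, a lysyl hydroxylase that prepares collagen for cross-linking, had 188, 197 and 201 against 260, 272 and 336, at 0.56 (SE 0.12), and its other probe set, at 0.38, read 173, 191 and 168 in the mutants against at most 161 in the controls. In both genes every mutant was clear of the controls, and in Plod2 this held for 2 probe sets. Col12a1, a collagen that decorates fibrils, had 216, 274 and 338 against 416, 373 and 369 (0.51), and its other probe set was likewise higher in every mutant (0.50). Fbln1, a fibulin of matrix and basement membranes, had 220, 236 and 297 against 349, 342 and 318 (0.43). Its other probe set above 64 had overlapping groups, with 134, 180 and 204 against 160, 201 and 183 (0.09). For Col12a1 and Fbln1 the difference against Jarid2WT replicate 3 alone was 0.19 and 0.18. Adamts20, a matrix metalloprotease, had the third largest difference of all members, 0.97 (SE 0.39), from signals of 25, 58 and 53 against 82, 82 and 86. All its controls were under 64, so that it met the signal limit through the mutants alone. Without Jarid2WT replicate 1 its difference was 0.59. Chst11 and Dse, which sulphate and epimerize chondroitin and dermatan chains, Emilin3, Olfml3 and Col8a1 had log2 differences of 0.77, 0.56, 0.68, 0.52 and 0.51.

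Matrix genes as a whole varied between samples without separating the groups. Of a list of 48 mesenchymal matrix genes 45 were measured, all above the floor of 16 on at least one array, and their summed signal was 43741, 48280 and 58650 in Jarid2WT and 50863, 58859 and 52448 in Jarid2Δpanc. The highest control and a mutant were alike in this sum, and 3 of the 41 genes above the signal limit were higher in every mutant, with 0 lower. Over all genes 7.41% were higher and 8.48% lower in this way, so that the share of higher matrix genes was near that of all genes. The third was Pcolce, at 0.26. Of 48 measured mesenchymal regulators and receptors, summed at 15039 to 15817 in Jarid2WT and without overlap at 15971 to 17076 in Jarid2Δpanc, 38 passed the signal limit and 8 of these were higher in every mutant, with 0 lower, beside the same 7.41% and 8.48% of all genes. Tcf21 was the only member among these 8. The others included Tshz2, Maf and Osr1, at 0.30, 0.30 and 0.29. The mesothelium list had 3 of 12 higher in every mutant (7.41% of all genes) and 0 lower (8.48%). The 3 were Bnc1, Upk1b and Aldh1a2, at 0.44, 0.30 and 0.27. Jarid2Δpanc replicate 1 led in Upk1b (149 against 106 and 105 in the other mutants) and Aldh1a2 (331 against 239 and 247). The median difference over the 15 measured genes was 0.27. Their sums were 10402 to 10916 in Jarid2WT and 10186 to 11243 in Jarid2Δpanc. The list includes the keratins Krt8, Krt18 and Krt19, which the duct and progenitor list also holds, so its sum is not specific to mesothelium. Meanwhile 16 of 23 acinar and 15 of 24 islet genes above the signal limit were lower in every mutant (8.48% of all genes) and 0 were higher (7.41%), with sums of 87714 to 104264 against 67418 to 79026 and of 40078 to 44531 against 27388 to 31714. The part of a lower share of epithelial RNA in the members' differences was not tested.

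Jarid2Δpanc replicate 1 stood above the other mutants in a subset. In Tcf21, Serpinb6b, Rdh10, Olfml3, Rspo3, Calcrl and Sema3a its signal exceeded the next mutant by 0.5 or more on the log2 scale. No member showed this for replicate 2 or 3. The share over all genes was not taken, so a trait of the members and one of the array cannot be told apart. Without replicate 1 the log2 differences of these 7 genes were 0.38, 0.58, 0.17, 0.29, 0.48, 0.30 and 0.31, so that Serpinb6b and Rspo3 alone among them stayed above 0.4. Rdh10, which makes retinaldehyde for retinoic acid synthesis, had signals of 224, 238 and 202 against 407, 243 and 254, and rested most on this sample. The same replicate had the most leukocyte signal. Over 35 measured genes of macrophages and other leukocytes, of which only Itgam was at the floor on all arrays, the sum was 9978 in it, 6237 and 5369 in the other mutants and 4843 to 6871 in the controls. C1qb, a complement component made by macrophages, was a member at 0.51 with 122, 186 and 203 against 279, 231 and 205, and its lowest mutant and highest control were nearly equal. The 2 other probe sets of C1qb above 64 had overlapping groups, at 0.33 and 0.24. The part of leukocyte RNA in these values was not tested.

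The remaining members were diverse. Serpinb6b and Serpinb9, intracellular serine protease inhibitors, are neighbours on chromosome 13 with no coding gene between them. Serpinb9 had signals of 59, 45 and 63 against 95, 96 and 82, at 0.72 (SE 0.17), and Serpinb6b had 60, 41 and 58 against 135, 81 and 75, at 0.84 (SE 0.32). Both were under the signal limit in all controls, so that the filter on at least 3 arrays required all mutants to be above it. Enpep, an aminopeptidase that cleaves angiotensin II, had 114, 129 and 133 against 173, 173 and 175 (0.47), with a gap of 0.38. Genes of cell division, the centrosome and the cilium numbered 8. Among them Cenpk, a kinetochore subunit, had 327, 341 and 377 against 468, 465 and 519 (0.48, SE 0.08), and Cchcr1, a centrosomal coiled-coil protein, had 69, 56 and 72 against 99, 103 and 102 (0.63). In both, the gap was over 0.3 on the log2 scale. Knl1, another kinetochore protein, and Anapc11, a subunit of the anaphase-promoting complex, had 0.42 and 0.40. Of 54 measured genes of cell cycle and replication, none of which was a member, 13 of the 53 above the signal limit were higher in every mutant (7.41% of all genes) and 2 were lower (8.48%), with a median difference over the list of 0.07.

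Metabolic enzymes numbered 9. Lpgat1, an acyltransferase of phospholipid synthesis, had 441, 394 and 391 against 677, 519 and 629 (0.57, SE 0.13). All 3 of its other probe sets above 64 had differences above 0, from 0.05 to 0.34. Those of like brightness overlapped, with 310, 324 and 366 against 332, 365 and 335 (0.05) and 371, 440 and 404 against 445, 386 and 438 (0.06). Only the dim one, at 0.34, was higher in every mutant. Gpt2, an alanine aminotransferase, had 403, 335 and 317 against 474, 441 and 544 (0.47), whereas 2 of its 3 other probe sets above 64 were at -0.05 and -0.21. Arg1, Cda and Txnrd2 had 0.55, 0.53 and 0.55. Arg1, with 38, 61 and 56 in Jarid2WT, met the signal limit through the mutants alone. The 50 members with other or less known roles had log2 differences of 0.40 to 0.84 and a median mean signal of 122. Of these Ttc14, a tetratricopeptide protein, had 219, 319 and 259 against 365, 383 and 471 (0.62), and all 6 of its other probe sets above 64 were higher on average, at 0.22 to 1.02. Hace1, a HECT ubiquitin ligase, had 65, 59 and 31 against 82, 94 and 80 (0.79). Tanc1, a scaffold of synapses, and Tmem267 had 0.75 and 0.74. Against Jarid2WT replicate 3 alone, which the rule had also used, they had 1.05 and 0.54. Ifit2, an interferon-induced gene, had 0.51, but 0.21 against that replicate. At the limit itself, Mdk, Fam110b, Anapc11 and Pltp lay just inside at 0.40 to 0.41, and Sncaip, Svep1, Snx24 and Ndc80 just outside at 0.40.

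Other probe sets of the same genes were not used by the rule, although they were read from the same samples. Of the members 74 had 144 others, of which 55 in 36 members passed the signal limit. Of these 55, 47 (85.5%) had a difference above 0, against 59.8% of 5793 such probe sets over all genes, and 14 (25.5%) were higher in every mutant, against 10.6%. Their median difference was 0.22, against 0.04 over all genes and 0.50 for the probe sets that stood for the members. The 14 belonged to 10 genes, Ttc14, Rsf1, Tcf7l1, Gm6958, Col12a1, Gpt2, Plod2, Specc1, Gucy1b1 and Lpgat1, and Gpt2 was the only one of these with another probe set below 0. The 8 probe sets with a difference below 0 belonged to Speg, Cux2, Gpt2, Depp1, Lyrm9 and Cdc37l1. A probe set of Lyrm9 was lower in every mutant, with 88, 73 and 76 against 54, 51 and 60 (-0.52). In 30 of the 36 members with such a second reading, every other probe set above 64 had a difference above 0. No share by gene was taken over all genes. The counts by probe set take several from 1 gene, with 6 of the 55 and 3 of the 14 from Ttc14, and 3 of each from Rsf1. No second reading above the limit was available for the other members, of which 37 had a single probe set. Pltp, a lipid transfer protein, had a dim second probe set with 34, 36 and 35 against 26, 12 and 30 (-0.59).

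**Figure D4:**
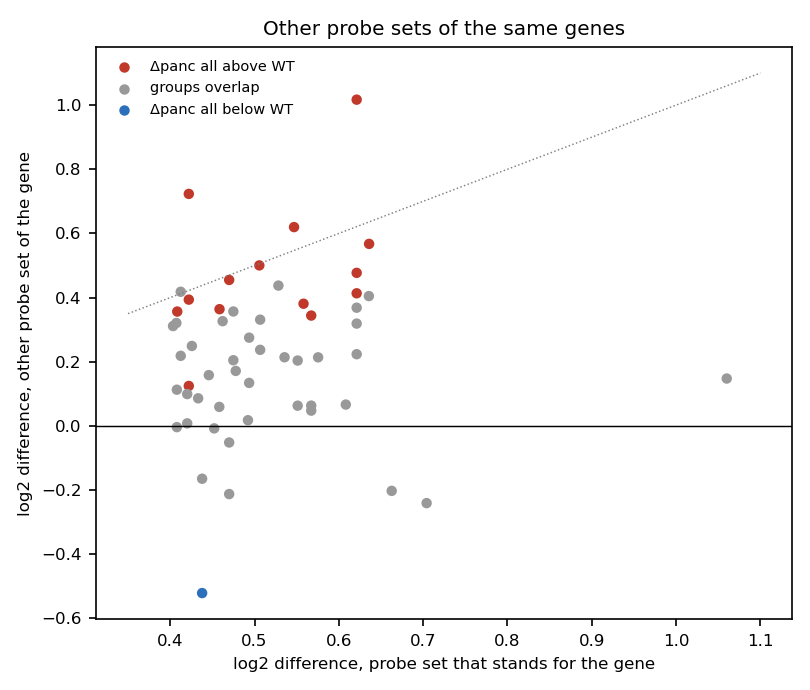
log2 difference of each of the 55 other probe sets above 64 (vertical axis) against the log2 difference of the probe set that stood for the same gene (horizontal axis). Red points had all Jarid2Δpanc samples above all Jarid2WT samples, blue all below, and grey overlapped, and the dotted line marks equal differences. Of the 55 points 47 lie above 0 and most lie under the dotted line.

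A sample left out gives a reading that the limits did not use, although its signal entered the pick of the brightest probe set. When the limits were applied to the other 5 samples, 146 to 245 genes were chosen as higher, and in 49.4% to 67.8% of them the left-out sample fell on the side of its own group. The lowest shares were those of Jarid2WT replicate 3 (49.4%) and Jarid2Δpanc replicate 3 (52.6%). For the genes chosen as lower by the same limits, the shares were 67.3% to 79.6%, above those of the higher genes for each of the 6 samples. This comparison is not like for like, since the lower genes of the full choice were brighter and had larger differences. No share over all genes was taken for the lower side. Over all genes above the signal limit the left-out sample was on the higher-in-mutant side in 24.9% to 29.1%, which describes all genes and is no level of chance, since genes that already separate 5 samples differ from genes at large. The left-out samples had median differences of 0.15 to 0.35 from the other group.

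**Figure D5:**
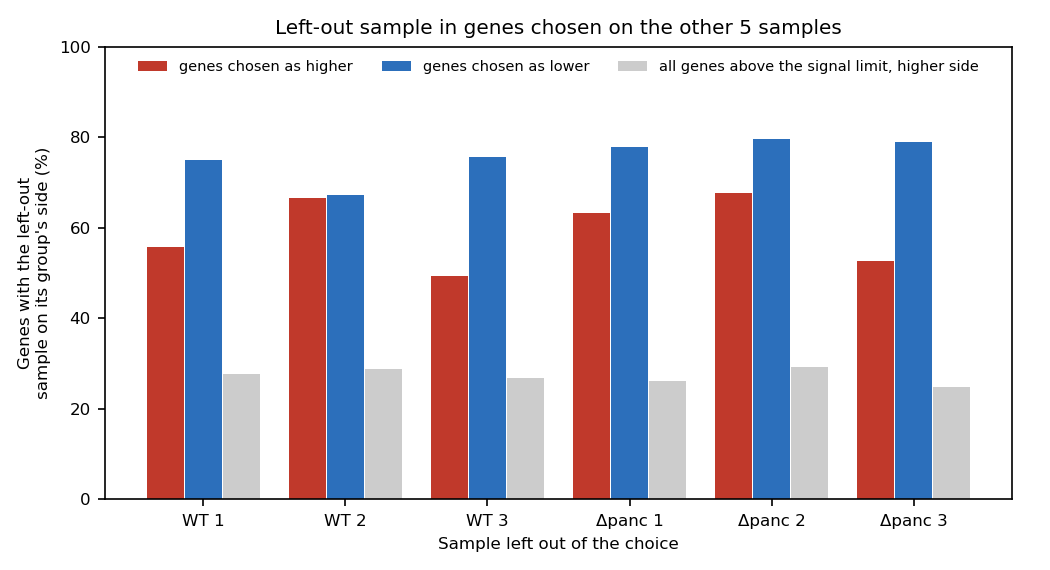
Share of genes (vertical axis, percent) in which a sample left out of the choice (horizontal axis) lay on the side of its own group. Red bars are genes chosen as higher in Jarid2Δpanc on the other 5 samples, blue bars genes chosen as lower, and grey bars all genes above the signal limit, read for the higher side. The red bars run from 49.4% to 67.8% and stay under the blue bars in all 6 samples.

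For the pseudogene Pisd-ps3 no chromosome was given. The other members lay on 17 of the autosomes, most often on chromosome 11 with 13 and on chromosomes 1, 2 and 10 with 11 each. Relative to the genes above the signal limit the share was highest on chromosome 10, with 11 of 501 (2.20%), among them Tcf21, Rspo3, Hace1, Chst11 and Arg1. Of the 111 members 108 are protein-coding. The list of 62 measured developmental regulators that are classical targets of Polycomb repressive complex 2 contained none of the members. Only 10 of the 62 passed the signal limit, and of these 0 were higher and 0 lower in every mutant. Over all genes the shares were 7.41% and 8.48%, and 10 genes are too few to tell 0 from such shares. In total 13 members were in any of the 36 lists used, and the others belonged to none.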

How the data were processed

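Transcript levels were measured on 6 Affymetrix mouse genome arrays, 3 per group. RNA was extracted with the RNeasy kit, and 50 ng entered 2 rounds of cDNA synthesis. The deposited values are linear whole-number intensities of 45101 probe sets, made by the authors with MAS5 (version not given in the sources used here) and scaled on each array to a trimmed mean of 150. For the study's own tests its methods give RMA normalization and LIMMA, and no RMA values were used here. Embryonic pancreas was taken as the tissue, although one description label speaks of islets.

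Of 35890 annotated probe sets 34958 carry a single symbol, and each of 18194 genes was read from its brightest probe set, by the mean of log2 values floored at 16. For 18033 of these the gene identifier was found in the RefSeq table, from which chromosomes and neighbours were taken. Members were found by the rule given at the start of the text, and the log2 difference is the mean of Jarid2Δpanc minus the mean of Jarid2WT, with its standard error from the spread in both groups (n = 3 each). Groups were compared over all genes by limma (version 3.58.1, R 4.3.3) with moderated variances and Benjamini-Hochberg adjustment. A run on simulated data checked only that planted differences, larger than those of most members, were recovered on average. It does not show whether differences as small as those of the members would be called. Other values were computed in Python 3.11.15 with numpy 2.4.6 and pandas 2.3.3. The p-values measure the spread between these samples only, and the number of arrays limits the precision. On each array 26.5% to 29.0% of the probe sets were below the floor.

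The members and the 36 gene lists were chosen with earlier results of these data known, and roles were assigned after values were seen. Named were Jarid2, the 25 members with the largest difference, the 10 brightest, the 10 with the widest gap, up to 5 members per list, the 4 genes on each side of the limit and members with another probe set above 64 that was lower. Rdh10, Olfml3, Calcrl, Sema3a and other members outside this rule were chosen after their values were seen. Alternatives covered each sample left out, a single control, normalization, the floor, the filter, the probe set, the limits, the variance model and the replicate number as a block.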

Additional observations from a re-analysis of the deposited data

Results flagged for a closer look

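Probe sets without a single gene symbol lay outside the choice. Of 10143 such probe sets 1503 passed the signal limit of 64 on at least 3 arrays, and 56 of these (3.73%) were higher in every Jarid2Δpanc sample by at least 0.4 on the log2 scale, against 31 that were lower by the same limits. They drew attention because the comparisons above did not use them. Their median log2 difference was 0.53. They are unnamed here and include any probe sets of sex-linked genes.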

How the results depend on the processing

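The number of genes chosen and the share of the 111 members chosen again moved with the samples and the limits. With each sample left out in turn, 146 to 245 genes were chosen and 79 to 89 of the 111 were kept, 245 genes without Jarid2WT replicate 3, 213 without Jarid2Δpanc replicate 3 and 176 without Jarid2WT replicate 1. With Jarid2WT replicate 3 as the single control 349 genes were chosen and 69 kept. A signal limit raised 2-fold gave 63 genes, all members, no filter on signal gave 336, a difference of at least 0.3 gave 235 and one of at least 0.6 gave 27 genes, all members. With the mean of all probe sets per gene 92 genes were chosen, of which 48 were members. Quantile normalization gave 79 genes (78 members) and median centring 82, and floors of 1 and 32 left the count at 111. The brightest probe set by linear signal, chosen after seeing the data, gave 112 genes with 110 members. Over 13 settings that changed the samples, the control, normalization, the floor or the probe set, 11 members were chosen every time (among them Tcf7l1, Prox1, Plod2, Tanc1 and Cchcr1) and 7 in 6 of them. These counts are no independent check, since the settings reuse the values that chose the members. Dropping samples cannot make a member's groups overlap, so a member could then be lost only through the signal limit or the mean difference.

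Among the named members 4 values turned: with the mean of all probe sets Nacc1 was at -0.0763, Pltp at -0.0929 and Lyrm9 at -0.0826, and without _x_at and _s_at probe sets Pltp was at -0.593. The cause is the other probe sets of these genes, which those settings bring in. Of the remaining values 656 stayed within 1 SD of the reported one and 40 moved further with the same sign. All 111 members kept a positive difference under quantile normalization, with a lowest value of 0.35, and the median over all genes shifted by less than 0.1 under every scaling.

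In limma the 0 genes called as higher became 14 with Jarid2WT replicate 3 as the single control, which assumes that this lone sample varies like the others, 1 under quantile normalization, 1 with the signal limit raised 2-fold and 0 to 4 with each sample left out. The 0 called as lower became 252, 2, 13 and 0 to 8 in the same settings and 3 with a signal above 64. An adjusted p under 0.10, a trended and robust prior and the replicate block gave 0 in both directions. Deviations of samples with the same replicate number correlated at -0.05, -0.05 and -0.03, so that the numbers were not taken as pairs. The replicate block does not apply to the choice of genes, which comes from no test.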
